A study of Schmidtea mediterranea with 35 samples.

Results

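Neoblasts of the planarian flatworm Schmidtea mediterranea were followed at days 6, 9 and 13 of RNAi against zfp1. The 12 zfp1 RNAi libraries, 4 at each day, are all the columns labelled with that target, out of 35 libraries in the table. They are compared with each other from day to day, then set beside RNAi against p53 (12 libraries over the same days) and RNAi against unc22 (11 libraries, 3 of them at day 13). All groups came from the CIW4 clonal line, kept at 20 C in gentamicin, and animals received calf liver paste mixed with bacteria that made the double-stranded RNA, in 3 meals given 3 days apart. Each library held polyA RNA of X1 cells, a Hoechst sorting gate of dividing cells. No label says from which event the days were counted, or whether replicates came from separate groups of animals, so the p-values here reflect variation among the libraries, some or all of which may be technical. All samples are 1 clonal line, and RNAi by feeding lowers a transcript in the whole animal, not in the sorted cells alone.

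Neoblasts are the only dividing cells of the planarian body and replace all its tissues. The zinc finger gene zfp-1 is known to mark planarian neoblasts that make epidermis, and its knockdown is known to stop the supply of new epidermal cells. The planarian counterpart of the tumour suppressor p53 is known to act in the same lineage. The twitchin gene unc-22 of Caenorhabditis elegans is a customary target for control RNAi, and the labels treat it here as non-targeting.

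The transcripts carry assembly identifiers that the table does not pair with gene names. The level of zfp1 itself, the markers of neoblasts and those of other cell types could therefore not be checked, and transcripts are grouped here by how their levels ran over the days. Levels are in RPKM, reads scaled by the length of the transcript and by a divisor for the library. Whole reads recovered from them summed to 4391559 to 13939153 per day 6 library, 11030949 to 26115474 per day 9 library and 9923011 to 24549054 per day 13 library.

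A pair of zfp1 libraries stood apart from the other 10. Replicate 1 of day 6 had 4945 of 25462 transcripts at 0 and replicate 5 of day 13 had 5021, whereas the other 10 libraries had 185 to 3588. The most abundant transcript, SMED30032887, took 25.2% and 32.2% of the reads of these libraries and 14.0% to 20.2% of the reads of the others. On the first principal component, which held 47.0% of the variance of the 12 libraries, they lay at 87.9 and 96.8, and the other 10 between -40.0 and 5.29. The median SD of a transcript over replicates, on the log2(RPKM + 1) scale, was 0.435 at day 6, 0.194 at day 9 and 0.34 at day 13, and it was 0.287 at day 6 and 0.153 at day 13 without these libraries. Both are called the low-complexity libraries. Each number of transcripts called between days of zfp1 RNAi is given below with and without them. Counts that describe a called list are with all libraries unless stated.

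**Figure D1:**
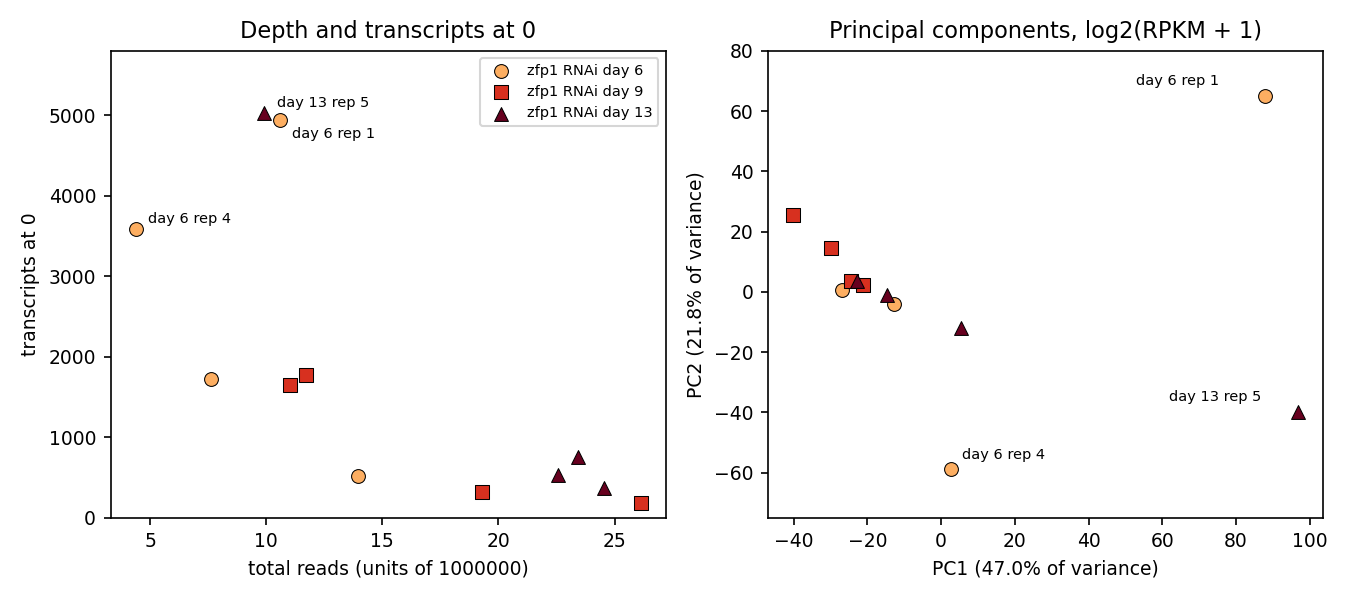
The 12 zfp1 RNAi libraries by total reads (left, x axis, in reads at the scale printed on the axis) and transcripts at 0 (left, y axis), and by the first and second principal components of log2(RPKM + 1) over the tested transcripts (right, no units). Each point is 1 library, coloured by day, and day 6 replicate 1 and day 13 replicate 5 lie apart from the rest in both panels, at 4945 and 5021 transcripts at 0 and at 87.9 and 96.8 on the first component. Day 6 replicate 4, the library with the fewest reads, lies apart on the second component.

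The first interval asked which neoblast transcripts changed between days 6 and 9 of the knockdown. In limma, on log2(RPKM + 1) with Benjamini-Hochberg adjustment, 45 transcripts rose and 22 fell at day 9 relative to day 6, 0.349% of the 19206 tested. Those that fell included 5 transcripts at 6.89 to 51.1 RPKM in unc22 libraries of all days that were at most 1.01 RPKM in every zfp1 library of day 13. Those that rose included 4 transcripts with means of 16.3 to 25.2 RPKM at day 9 and 7.51 to 12.1 RPKM at day 6, none of them called between these days of unc22 RNAi. These are bulk libraries of sorted cells, so fewer cells of a type and less RNA per cell cannot be told apart. In the same interval unc22 RNAi had 2 called transcripts, 0.0104% of those tested, both lower at day 9.

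The transcripts named below for this interval are the 10 largest falls and 10 largest rises among called transcripts whose 4 day 9 libraries did not overlap the 4 day 6 libraries. The lack of overlap between these days was therefore required of them and is no finding.

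SMED30002134, a transcript of 616 bases, was at 59.9, 11.3, 12.7 and 8.79 RPKM in the 4 libraries of day 6 after zfp1 RNAi, at 1.51, 0.152, 0.932 and 3.42 RPKM at day 9, and at 0.374, 0.199, 0.0748 and 0 RPKM at day 13. The day 13 levels rest on at most 5 reads per library. Its log2 change from day 6 to day 9 was -2.997 ± 0.43 (SE; adjusted p = 6.9e-04, limma). After unc22 RNAi it averaged 31.8 ± 13.5, 26.4 ± 2.75 and 23.1 ± 4.87 RPKM at days 6, 9 and 13 (SD, n = 4, 4 and 3), with no call between days. The zfp1 libraries of day 6 thus lay below all 4 unc22 libraries of that day, except replicate 1, which lay above them.

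SMED30014876, SMED30011419 and SMED30025741 ran the same way. SMED30014876 was at 47.1, 9.81, 7.01 and 6.50 RPKM at day 6 after zfp1 RNAi, at 0.508 to 3.77 RPKM at day 9 and at 0.277 to 1.01 RPKM at day 13, and it averaged 20.6 to 34.4 RPKM over the days of unc22 RNAi. SMED30011419 was at 24.4, 4.87, 5.03 and 4.72 RPKM at day 6 and at 0.163 to 2.33 RPKM at day 9, against unc22 means of 20.9 to 23.7 RPKM. SMED30025741 was at 29.1, 4.82, 3.45 and 1.76 RPKM at day 6 and at 0.158 to 1.66 RPKM at day 9, against unc22 means of 10.4 to 12.9 RPKM. In all 3, as in SMED30002134, replicate 1 of day 6, a low-complexity library, lay within or above the range of the unc22 libraries of day 6, and the other 3 zfp1 libraries of day 6 lay below every unc22 library of day 6. The level of zfp1 could not be read, so whether the knockdown in replicate 1 matched that of its fellows was not tested, and the day 6 means of these transcripts rest largely on that library.

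The log2 changes at day 9 relative to day 6 were -2.27 ± 0.37 for SMED30014876 (adjusted p = 2.7e-03, limma), -2.19 ± 0.32 for SMED30011419 and -2.17 ± 0.44 for SMED30025741 (SE). The changes of these 4 transcripts were smaller without the low-complexity libraries and stayed called, at -2.41 for SMED30002134, -1.65 for SMED30014876, -1.67 for SMED30011419 and -1.45 for SMED30025741. SMED30020396 took the same course and had a change of -1.52 ± 0.35, which was not called without those libraries (-1.03, adjusted p = 8.2e-02, limma). The difference of these changes from those of unc22 RNAi was -2.81 ± 0.61 for SMED30002134 and -2.04 ± 0.45 for SMED30011419 and did not pass the adjustment (adjusted p = 2.5e-01 for both, limma).

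After p53 RNAi these 5 transcripts were below every unc22 library of day 6 already at that day. SMED30011419 averaged 0.348 ± 0.13 RPKM after p53 RNAi at day 6 (SD, n = 4), and SMED30002134 averaged 5.10 ± 0.697 RPKM there and 1.48 ± 0.78 RPKM at day 9. At day 6 the 3 zfp1 libraries other than replicate 1 lay between the p53 and the unc22 libraries for SMED30002134, SMED30011419 and SMED30014876. For SMED30025741 they overlapped the p53 libraries, at 1.76 to 4.82 RPKM after zfp1 RNAi and 1.83 to 3.17 RPKM after p53 RNAi. For SMED30020396 they were at 4.33, 1.68 and 1.82 RPKM, 1 within and 2 under the p53 range of 4.27 to 6.12 RPKM.

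SMED30002500, of 972 bases, ran differently. It was at 29.8, 17.8, 13.6 and 16.3 RPKM at day 6 after zfp1 RNAi, at 4.41, 3.75, 5.91 and 5.82 RPKM at day 9, and at 2.79, 3.03, 3.46 and 4.92 RPKM at day 13. The unc22 libraries held 2.42 to 5.03 RPKM on all days. The zfp1 libraries were far above that range at day 6, overlapped it at day 9 and lay within it at day 13. Its log2 change at day 9 relative to day 6 was -1.73 ± 0.18 after zfp1 RNAi (adjusted p = 3.0e-06) and -0.17 ± 0.18 after unc22 RNAi (SE, limma). It was the 1 transcript, 0.00521% of those tested, whose change in this interval differed from that of unc22 RNAi (difference -1.55 ± 0.26, adjusted p = 2.6e-02, limma). This difference was -1.33 without the low-complexity libraries, where 6 transcripts were called. With limma-voom on the recovered reads none was called, and 595 of 19206 were at an unadjusted p under 0.05. That share is below the 0.05 expected by chance.

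The other 4 of the 10 named falls were weakly expressed. SMED30032765, SMED30035103, SMED30025855 and SMED30022581 averaged 2.73 to 5.69 RPKM at day 6 and 0.684 to 1.804 RPKM at day 9 after zfp1 RNAi. SMED30025855 and SMED30022581 stayed called without the low-complexity libraries, and SMED30032765 and SMED30035103 did not.

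**Figure D2:**
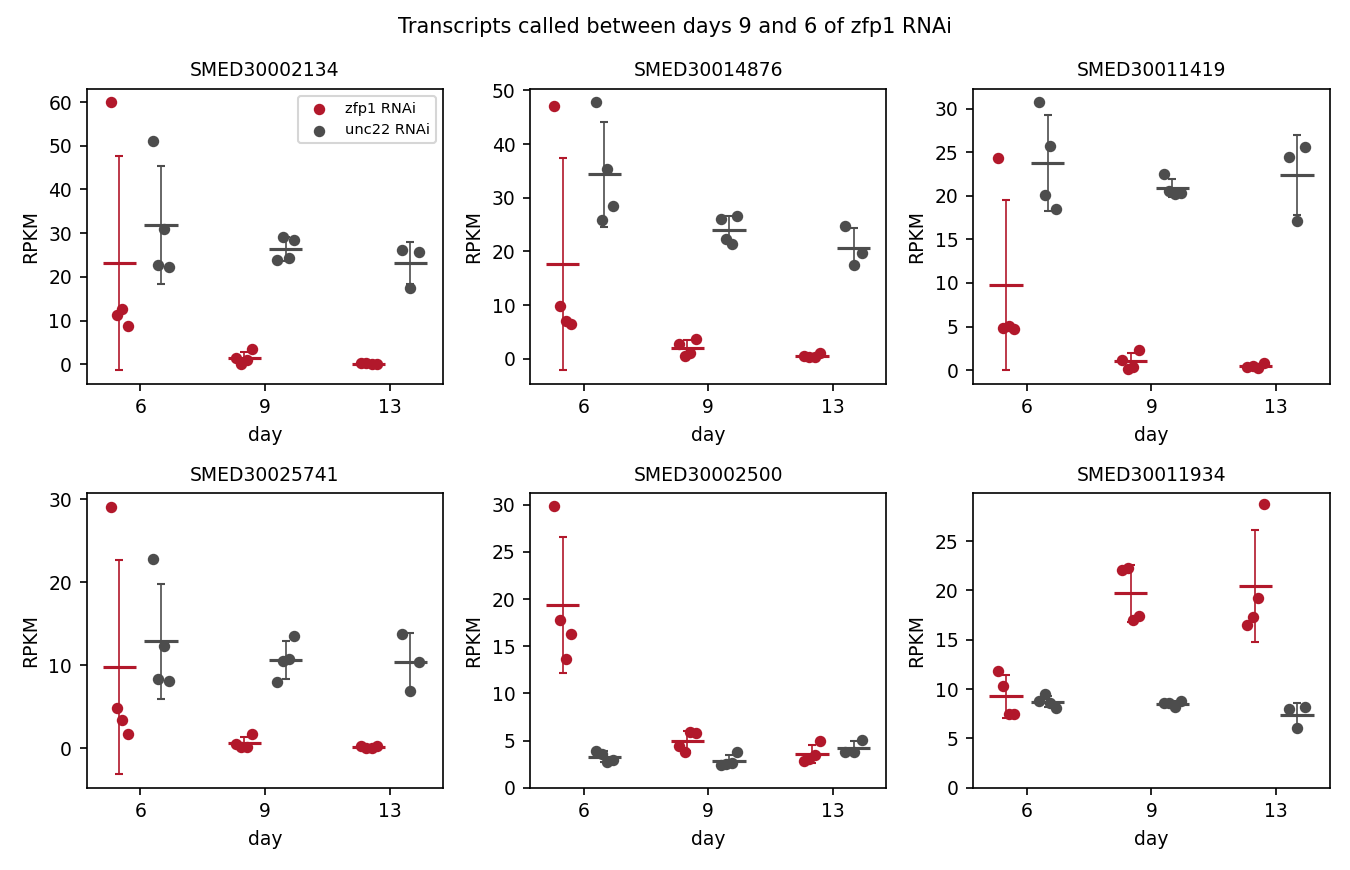
RPKM (y axis, linear, a scale per panel) of 6 transcripts called between days 9 and 6 of zfp1 RNAi, by day (x axis), with zfp1 RNAi in red and unc22 RNAi in grey. Points are libraries, lines are means and bars are SD (n = 4, but 3 for unc22 at day 13), and in the first 4 panels day 6 replicate 1 after zfp1 RNAi lies near or above the unc22 points, 59.9 RPKM for SMED30002134, while days 9 and 13 lie near 0.

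The rises of this interval were smaller, and none of the 10 named changed by more than 1.47 on the log2 scale. SMED30011934, of 865 bases, was at 22.1, 22.3, 17.0 and 17.4 RPKM at day 9 after zfp1 RNAi and at 11.8, 10.3, 7.50 and 7.46 RPKM at day 6, a log2 change of 1.02 ± 0.16 (SE; adjusted p = 2.4e-03, limma). It stayed at 16.5 to 28.7 RPKM at day 13, while the unc22 libraries held 6.04 to 9.50 RPKM on all days. SMED30024586, of 1992 bases, averaged 16.3 ± 3.48 RPKM at day 9 and 7.51 ± 2.25 RPKM at day 6 after zfp1 RNAi (SD, n = 4 each), a log2 change of 1.04 ± 0.17, and the unc22 means were 4.93 to 6.58 RPKM over the days. Both rises stayed called without the low-complexity libraries, at 1.14 for SMED30011934 and 0.85 for SMED30024586.

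SMED30022187, of 3215 bases, was at 25.8, 28.7, 21.5 and 21.7 RPKM at day 9 and at 5.72, 12.4, 13.8 and 12.1 RPKM at day 6 after zfp1 RNAi (log2 change 1.14 ± 0.22, SE; adjusted p = 1.2e-02, limma). Its day 13 libraries held 18.2, 17.8, 16.6 and 7.35 RPKM, the last in the low-complexity library, and the change at day 13 relative to day 9 did not pass the test (-0.73 ± 0.22, SE; adjusted p = 1.6e-01, limma). SMED30005571, SMED30024551 and SMED30030379 also averaged highest at day 9, at 25.2, 8.91 and 15.7 RPKM, with 20.6, 4.87 and 11.8 RPKM at day 13. After p53 RNAi these 4 transcripts averaged highest at day 13, the largest mean being 36.6 ± 12.5 RPKM for SMED30005571 (SD, n = 4).

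The other 4 named rises were of transcripts with lower means at day 6 than after unc22 RNAi. SMED30010770 averaged 5.98 ± 1.63 RPKM at day 9 and 2.00 ± 0.958 RPKM at day 6 after zfp1 RNAi, and 6.21 and 4.59 RPKM at the same days after unc22 RNAi. SMED30000769 and SMED30009805 were listed at 0 in the low-complexity library of day 6 and held at most 1.46 RPKM in any zfp1 library of that day, against 2.14 to 3.43 RPKM at day 9. SMED30007365 averaged 12.4 ± 2.48 RPKM at day 9 and 5.49 ± 1.35 RPKM at day 6 after zfp1 RNAi, and 8.66 and 7.18 RPKM after unc22 RNAi.

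Across the 45 called rises the median length was 1811 bases, against 881.5 bases for the 22 called falls and 1074.5 bases for all tested transcripts. The mean over the 12 libraries reached 5 RPKM for 31 of the 45 and for 7 of the 22, against 8750 of the 19206 tested. These shares are descriptions with no test. None of the 45 was called between days 13 and 9. The intervals share the day 9 libraries, so their changes are not independent.

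Without the low-complexity libraries 67 transcripts rose and 34 fell at day 9 relative to day 6, and 49 transcripts were called with and without them, in the same direction. Of the 20 named transcripts 16 stayed called. With the 12 zfp1 libraries fitted alone none was called, although 1526 were at an unadjusted p under 0.05 in limma. The count also fell to 10 without day 9 replicate 2 and to 18 without day 9 replicate 1, and it was 42 without day 6 replicate 1, 235 without day 6 replicate 2 and 382 without day 13 replicate 5.

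**Figure D3:**
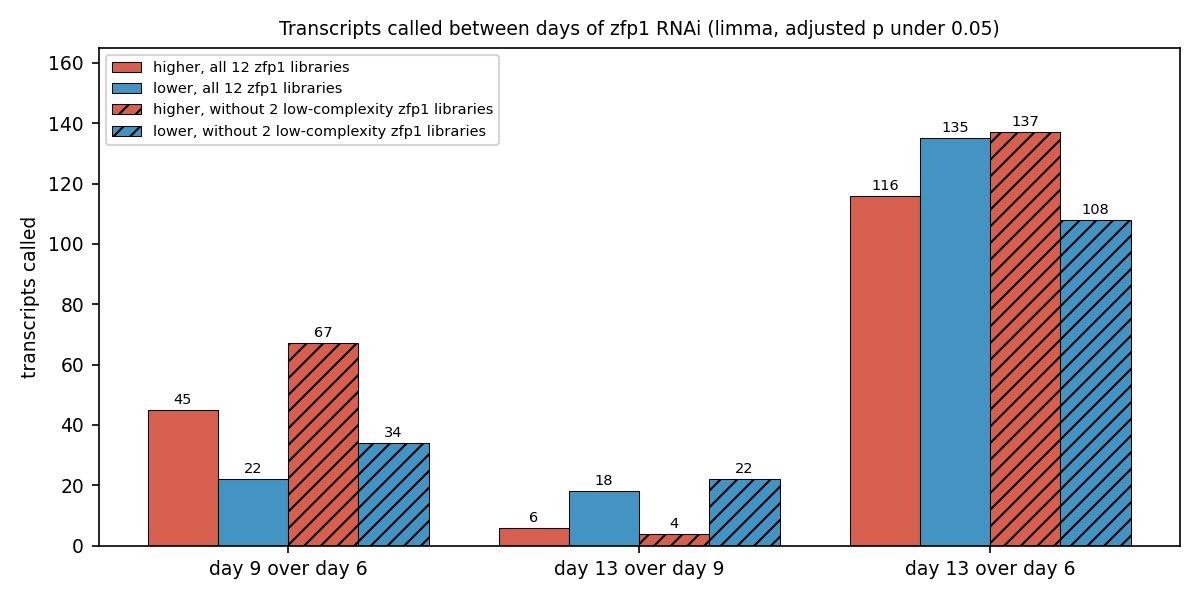
Number of transcripts (y axis) called higher (red) or lower (blue) in each pair of days of zfp1 RNAi (x axis), with all 12 libraries (plain bars) and without the low-complexity pair (hatched bars). The bars read 45 and 22 for day 9 over day 6, 6 and 18 for day 13 over day 9, and 116 and 135 for day 13 over day 6 with all libraries.

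The second interval asked which transcripts changed between days 9 and 13 of the knockdown. In limma 6 rose and 18 fell at day 13 relative to day 9, 0.125% of those tested, which is fewer than in the first interval. That order turned with limma-voom on the recovered reads (67 calls in the second interval and 49 in the first), with quality weights (1069 and 127) and without day 6 replicate 1 (52 and 42), and at an unadjusted p under 0.05 the counts were 3867 and 3489. With quantile scaling the split was 13 higher and 21 lower. Some of the transcripts that fell had been above the unc22 level at days 6 and 9 and were at or under it at day 13, and others ran close to unc22 RNAi throughout. The rises included an abundant transcript at 4320 to 4602 RPKM on day 13.

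SMED30022975, of 1740 bases, had the smallest adjusted p. It was at 45.0, 48.5, 40.7 and 45.1 RPKM at day 6 after zfp1 RNAi, at 63.3, 63.8, 52.3 and 53.1 RPKM at day 9, and at 21.7, 26.6, 27.1 and 28.1 RPKM at day 13. The unc22 libraries held 30.9 to 40.3 RPKM on all days, so every zfp1 library was above that range at days 6 and 9 and below it at day 13. The log2 change at day 13 relative to day 9 was -1.14 ± 0.11 (SE; adjusted p = 2.4e-07, limma) after zfp1 RNAi and 0.08 ± 0.12 after unc22 RNAi. It was the 1 transcript, 0.00521% of those tested, whose change in this interval differed from that of unc22 RNAi (difference -1.21 ± 0.16, adjusted p = 3.1e-04, limma). The difference was -1.25 without the low-complexity libraries, where 2 transcripts were called. After p53 RNAi SMED30022975 averaged 50.1 ± 2.34, 59.0 ± 6.32 and 49.0 ± 7.47 RPKM at days 6, 9 and 13 (SD, n = 4 each), above the unc22 range at each day.

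SMED30016942, of 1395 bases, averaged 10.9 ± 3.19, 15.2 ± 1.62 and 5.93 ± 0.553 RPKM at days 6, 9 and 13 of zfp1 RNAi, and 5.46 ± 0.478, 7.30 ± 1.41 and 6.44 ± 1.74 RPKM at the same days of unc22 RNAi. Its zfp1 libraries of days 6 and 9 lay above the unc22 libraries of the same day, and those of day 13 overlapped them. SMED30032800, of 3366 bases, was at 2.39, 3.26, 3.39 and 3.65 RPKM at day 6, at 2.10, 2.31, 2.09 and 1.73 RPKM at day 9 and at 0.424, 0.667, 0.616 and 0.355 RPKM at day 13, and the unc22 libraries held 0.171 to 0.804 RPKM throughout. SMED30010467 averaged 0.931 ± 0.346 RPKM at day 13 and 4.24 ± 0.755 RPKM at day 9 of zfp1 RNAi, against unc22 means of 1.73 and 0.797 RPKM at these days.

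The log2 changes at day 13 relative to day 9 were -1.22 ± 0.17 for SMED30016942 (adjusted p = 4.1e-04), -1.01 ± 0.14 for SMED30032800 (adjusted p = 3.7e-04) and -1.45 ± 0.29 for SMED30010467 (SE; adjusted p = 3.0e-02, limma). SMED30010467 was not called without the low-complexity libraries (-1.31, adjusted p = 1.1e-01, limma). The difference from the unc22 change was -1.05 ± 0.25 for SMED30016942 (adjusted p = 3.5e-01), -0.73 ± 0.21 for SMED30032800 (adjusted p = 8.7e-01) and -1.98 ± 0.43 for SMED30010467 (SE; adjusted p = 2.0e-01, limma), so none passed the adjustment.

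SMED30015704, of 1444 bases, fell on a level already under that of unc22 libraries. It was at 6.29, 5.89, 6.41 and 5.34 RPKM at day 6 after zfp1 RNAi, at 2.84, 3.63, 3.65 and 3.72 RPKM at day 9 and at 1.05, 1.61, 0.99 and 1.45 RPKM at day 13, and no library of 1 day overlapped another day. Between days 13 and 9 the naming rule required this of every transcript named for the interval. The unc22 means were 8.98 to 10.5 RPKM with no call between days. SMED30030498, SMED30027621 and SMED30016325 averaged 3.23, 2.82 and 1.55 RPKM at day 13 and 10.1, 8.50 and 4.54 RPKM at day 9 after zfp1 RNAi, with day 6 means of 5.75, 6.15 and 2.54 RPKM.

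SMED30008024, of 5811 bases, and SMED30005141, of 4690 bases, ran close to their unc22 course. SMED30008024 averaged 10.5, 7.26 and 2.93 RPKM at days 6, 9 and 13 after zfp1 RNAi, and 12.2, 6.62 and 2.96 RPKM after unc22 RNAi. At day 13 relative to day 6 it fell in both, by 1.52 on the log2 scale after zfp1 RNAi and by 1.83 after unc22 RNAi. SMED30005141 averaged 1.94 RPKM at day 13 and 4.43 RPKM at day 9 after zfp1 RNAi, and 2.39 and 3.64 RPKM after unc22 RNAi. In both transcripts the low-complexity libraries of days 6 and 13 held the lowest zfp1 level of their day.

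All 6 called rises met the rule for naming. SMED30035193, of 2392 bases, was at 4411, 4320, 4516 and 4602 RPKM at day 13 and at 2869, 2814, 2594 and 2618 RPKM at day 9 after zfp1 RNAi, a log2 change of 0.71 ± 0.13 (SE; adjusted p = 9.8e-03, limma). After unc22 RNAi the change was 0.51 ± 0.14 and was not called. The unc22 mean of 4415 RPKM at day 13 lay within the zfp1 range of that day, and the unc22 mean of 3081 RPKM at day 9 lay above the zfp1 range. SMED30030204 and SMED30027637 rose after unc22 RNAi too: the log2 changes were 1.11 ± 0.20 and 0.94 ± 0.20 after zfp1 RNAi, and 1.25 ± 0.22 and 1.30 ± 0.22 after unc22 RNAi (SE).

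SMED30035254 averaged 6.86 ± 2.11 RPKM at day 13 and 2.58 ± 0.733 RPKM at day 9 after zfp1 RNAi (log2 change 1.12 ± 0.21, SE; adjusted p = 1.6e-02, limma), and SMED30005941 averaged 9.98 ± 2.58 RPKM and 5.31 ± 0.469 RPKM at these days. SMED30033387 held at most 1.53 RPKM in any zfp1 library. In all 6 the highest zfp1 library of day 13 was the low-complexity one, with 14.7 RPKM against 7.23 to 7.76 RPKM for SMED30030204. SMED30035193, SMED30030204 and SMED30035254 stayed called without the low-complexity libraries, and SMED30027637, SMED30005941 and SMED30033387 did not.

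**Figure D4:**
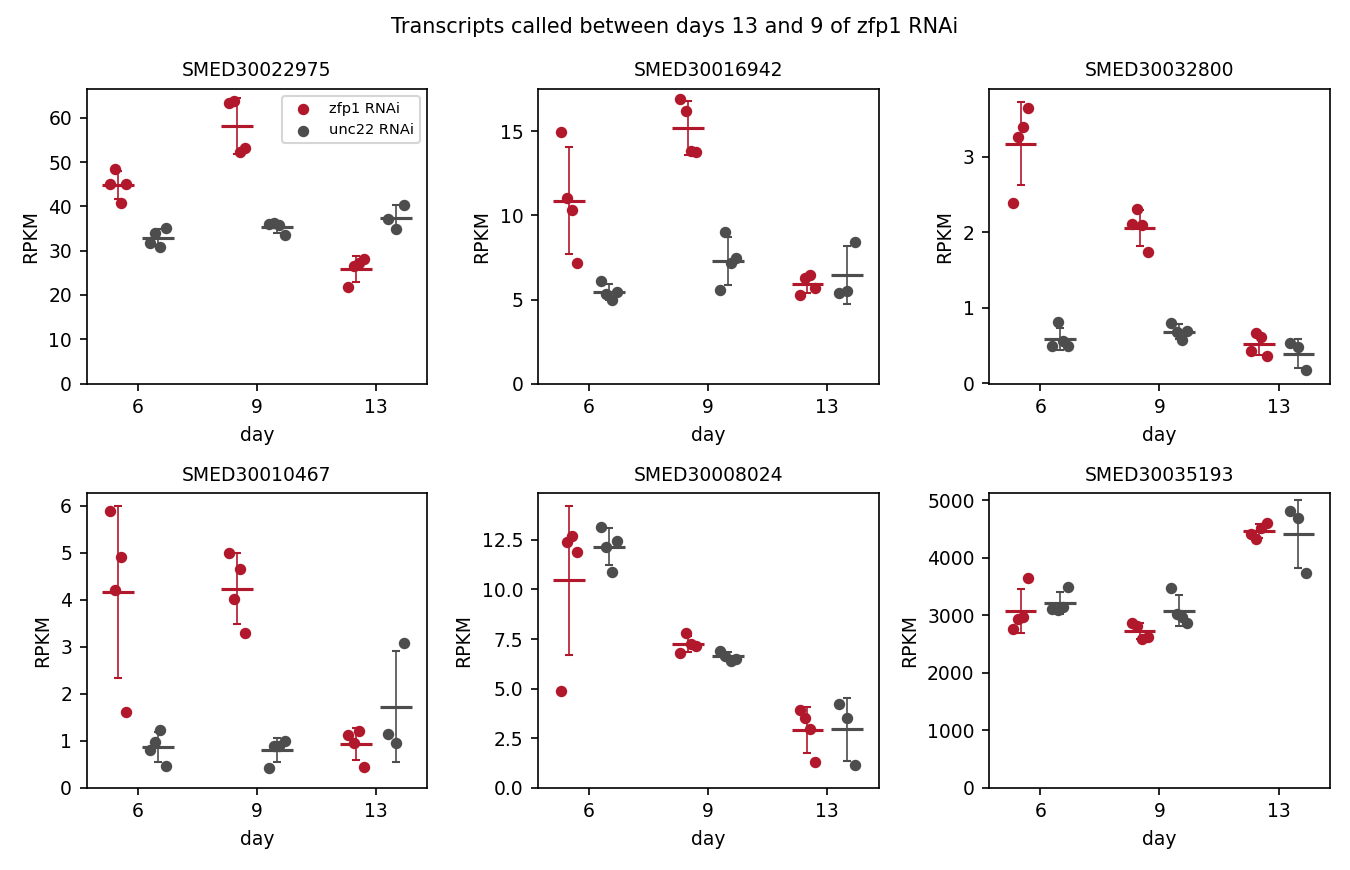
RPKM (y axis, linear, a scale per panel) of 6 transcripts called between days 13 and 9 of zfp1 RNAi, by day (x axis), with zfp1 RNAi in red and unc22 RNAi in grey. Points are libraries, lines are means and bars are SD (n = 4, but 3 for unc22 at day 13), and SMED30022975 lies above the unc22 points at days 6 and 9 and below them at day 13, at 21.7 to 28.1 RPKM, while SMED30008024 and SMED30035193 run close to unc22 RNAi.

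Without the low-complexity libraries 4 transcripts rose and 22 fell at day 13 relative to day 9, and 18 were called with and without them. Of the 16 named, 12 stayed called. With the 12 zfp1 libraries fitted alone none was called, although 1632 were at an unadjusted p under 0.05 in limma. The count was 10 without day 9 replicate 4 or without day 13 replicate 4, 11 without day 9 replicate 2, 12 without day 9 replicate 1 and 15 without day 13 replicate 5. It was 39 without day 6 replicate 4, day 13 replicate 1 or unc22 day 13 replicate 5, and 52 without day 6 replicate 1.

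Over the whole course, 116 transcripts rose and 135 fell at day 13 relative to day 6 of zfp1 RNAi, 1.31% of those tested. For 95 of the 116 and 127 of the 135 the mean of day 9 lay between those of days 6 and 13, as it did for 5143 of the 19206 tested. The 116 and the 135 were chosen by a difference between days 6 and 13, and a wide gap holds the day 9 mean more often. These counts therefore describe the lists and test nothing. The largest falls were those of SMED30002134 (-3.95 ± 0.43), SMED30014876 (-3.12 ± 0.37) and SMED30005838 (-2.79 ± 0.45, SE; adjusted p = 4.2e-04, limma). SMED30005838, of 270 bases, was at 37.1, 3.52, 7.12 and 17.0 RPKM at day 6, 5.20 to 6.91 RPKM at day 9 and 0 to 1.88 RPKM at day 13, with the highest level in the low-complexity library of day 6.

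The largest rises over the course were those of SMED30015328, SMED30001886 and SMED30008927. SMED30008927, of 1137 bases, was at 0.819, 1.34, 0.740 and 1.65 RPKM at day 6 after zfp1 RNAi, at 2.46, 2.88, 3.24 and 3.21 RPKM at day 9 and at 5.14, 4.35, 4.91 and 8.55 RPKM at day 13, so each day lay above the one before without overlap. Between days 13 and 6 the naming rule required this of SMED30008927. Its log2 change over the course was 1.64 ± 0.19 (SE; adjusted p = 3.0e-06, limma), and the unc22 means were 1.51, 1.73 and 2.68 RPKM at days 6, 9 and 13. SMED30001886 averaged 16.6 ± 2.79, 32.0 ± 9.51 and 73.1 ± 39.4 RPKM, with 130 RPKM in the low-complexity library of day 13 (log2 change 1.95 ± 0.28, SE). SMED30015328 spread widely within days, from 64.6 to 136 RPKM at day 13 and from 8.78 to 26.3 RPKM at day 6 (log2 change 2.53 ± 0.60, SE; adjusted p = 2.4e-02, limma). It rose as far after unc22 RNAi (2.49 ± 0.65, SE; adjusted p = 4.0e-02, limma) and was not called after zfp1 RNAi without the low-complexity libraries (2.44, adjusted p = 8.2e-02, limma).

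The unc22 course over the same days shares no library with the zfp1 course. Both were fitted with the same estimate of the spread of each transcript, so their calls are not independent. In it 214 transcripts rose and 115 fell at day 13 relative to day 6, 1.71% of those tested. Of the 135 transcripts that fell over the zfp1 course, 116 had a negative change over the unc22 course, 27 of them called lower (0.599% of all tested) and 1 of the 135 called higher, with a median log2 change of -0.443. Of the 116 that rose over the zfp1 course, 77 had a positive change over the unc22 course, 15 of them called higher (1.11% of all tested) and 1 of the 116 called lower, with a median of 0.149. All tested transcripts had a median of -0.033 over the unc22 course, with 10337 of 19206 negative.

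Without the low-complexity libraries 137 transcripts rose and 108 fell at day 13 relative to day 6 of zfp1 RNAi, so the balance turned towards rises, and 132 were called with and without them. Over the unc22 course in this fit 95 of these 137 were positive, 28 of the 137 being called higher and 4 lower, and 90 of the 108 were negative, 40 of the 108 being called lower and 1 higher. Among all 19206 tested, the same fit called 666 higher and 385 lower over the unc22 course, against 214 and 115 with all libraries. That fit kept unc22 day 13 replicate 5, which had 4546 transcripts at 0. Without this library too, 181 of 296 rises were positive over the unc22 course, with a median of 0.097 and 25 called higher. Of 199 falls 153 were negative, with a median of -0.24 and 33 called lower. All tested transcripts then had a median of 0.001, with 192 called higher and 122 lower. With the 12 zfp1 libraries fitted alone 10 rose and 16 fell. The count was 692 without day 6 replicate 1, 157 without day 6 replicate 3 and 137 without day 13 replicate 4.

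**Figure D5:**
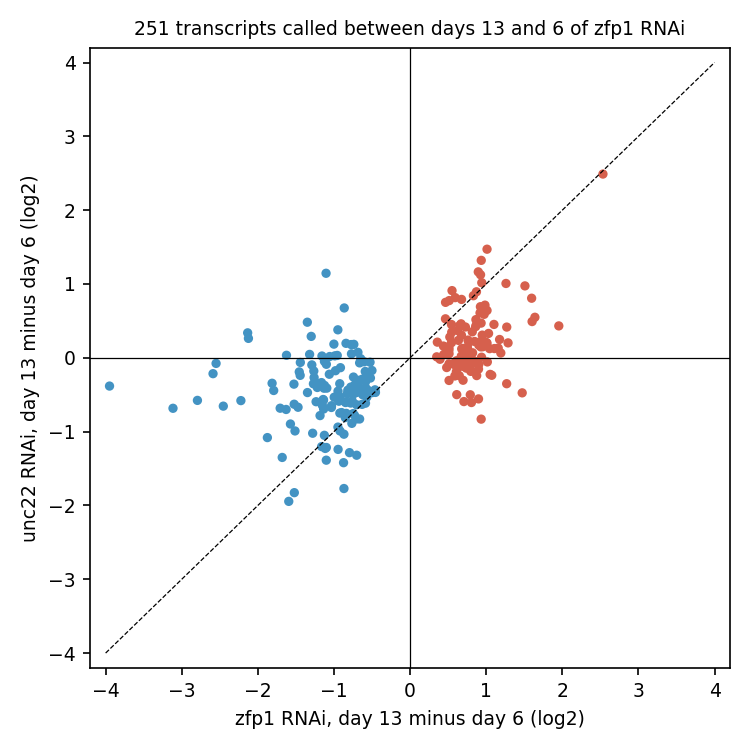
Log2 change at day 13 relative to day 6 after zfp1 RNAi (x axis) and after unc22 RNAi (y axis), on log2(RPKM + 1), for the 251 transcripts called over the zfp1 course. Each point is a transcript, red if it rose and blue if it fell after zfp1 RNAi, and the dashed line marks equal change. Most blue points, 116 of 135, lie below 0 on the unc22 axis, and SMED30002134 lies farthest left, at -3.95.

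Transcripts that differed from unc22 RNAi at day 6 were read in the later interval of zfp1 RNAi, which shares no library with that comparison. It does share the estimate of the spread of each transcript with the day 6 comparison, so calls in both are not independent. The comparison with unc22 RNAi at day 6 called 81 transcripts higher with zfp1 knocked down and 169 lower, 1.3% of those tested. Of the 81, 64 had a negative change at day 13 relative to day 9 of zfp1 RNAi, 5 of them were called lower, as were 0.0937% of all tested, and none higher, and the median log2 change was -0.249. Of the 169, 89 had a negative change, none was called, and the median was -0.026. All tested transcripts had a median of -0.045, with 10514 of 19206 negative, and the medians of these lists at day 13 relative to day 9 of unc22 RNAi were -0.126 and 0.157. With a replicate block that comparison called 1 higher and 11 lower, and the 81 came to 50, 46 and 52 without unc22 day 6 replicates 2, 3 and 4, each left out in turn. Without the low-complexity libraries the lists held 136 and 228 transcripts, with medians of -0.179 and 0.017, and 108 of the 136 and 106 of the 228 were negative.

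The zfp1 course was then set beside that of p53 RNAi. The change at day 13 relative to day 9 differed from that after p53 RNAi for 546 transcripts, 2.84% of those tested, of which 173 changes were more positive and 373 more negative after zfp1 RNAi. For the 373 the median log2 change was -0.270 after zfp1 RNAi and 0.803 after p53 RNAi, and for the 173 it was 0.485 after zfp1 RNAi and -0.627 after p53 RNAi. Of the 373, 293 were called higher at day 13 relative to day 9 of p53 RNAi (3.83% of all tested were), and 9 were called lower in that interval of zfp1 RNAi. The 373 and the 173 were chosen by a difference that holds these same changes, so their medians and counts describe them and test nothing. The 2 largest negative differences were of transcripts not called after zfp1 RNAi. SMED30013183 was at 4.06, 3.78, 4.81 and 6.27 RPKM at day 13 and at 6.12, 8.75, 8.08 and 7.14 RPKM at day 9 of zfp1 RNAi, while it averaged 61.6 ± 5.58 RPKM at day 13 and 4.28 ± 1.43 RPKM at day 9 of p53 RNAi (difference -4.19 ± 0.35, SE; adjusted p = 7.3e-09, limma).

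SMED30008091 averaged 3.37 ± 1.69 RPKM at day 13 and 2.75 ± 0.436 RPKM at day 9 of zfp1 RNAi, against 27.8 ± 0.721 and 2.40 ± 0.516 RPKM at these days of p53 RNAi (difference -2.93 ± 0.27, SE). The largest positive differences, of SMED30024440 (3.32 ± 0.86) and SMED30004214 (2.79 ± 0.72, SE), rested partly on the low-complexity library of day 13, where the level of SMED30004214 was 621 RPKM, with 75.4 to 92.2 RPKM in its 3 fellows. They also rested on lower p53 means at day 13 than at day 9. These were 2.07 ± 1.23 and 9.29 ± 5.56 RPKM for SMED30024440, and 52.9 ± 7.07 and 138.9 ± 60.3 RPKM for SMED30004214 (SD, n = 4 each). Neither difference was called without the low-complexity libraries, and 129 differences were positive and 367 negative. Between days 9 and 6 the change differed from that after p53 RNAi for 1 transcript, 0.00521% of those tested, SMED30017810 (difference -2.42 ± 0.42, SE; adjusted p = 4.9e-02, limma), which held at most 4.63 RPKM in any zfp1 library. Without the low-complexity libraries 277 differences of this interval were positive and 324 negative.

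The most abundant transcripts gave no call between days of zfp1 RNAi. SMED30032887, of 905 bases, averaged 209300 ± 91770, 158500 ± 8177 and 288400 ± 162000 RPKM at days 6, 9 and 13 (SD, n = 4 each), and its highest level at days 6 and 13 was in the low-complexity library. SMED30013735 averaged 9531, 11520 and 11940 RPKM, SMED30019803 averaged 7486, 7873 and 7853 RPKM and SMED30016196 averaged 5090, 5662 and 5594 RPKM at days 6, 9 and 13. SMED30002931, of 361 bases, was at 19220 RPKM in the low-complexity library of day 6 and at 1966 to 2675 RPKM in the other 3 of that day.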

How the data were processed

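PolyA RNA of Hoechst-sorted X1 cells was sequenced from TruSeq libraries made of 100 ng of RNA, per the labels' protocols. The authors deposited RPKM values for 25462 transcripts in 35 libraries. CASAVA 1.8.2, Bowtie and edgeR are named in the submitters' processing notes, without their roles, and the transcript assembly is not given in the sources used here. Groups, days and replicate numbers came from the labels, and the deposited columns match them by name.

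From the deposited RPKM, numbers of whole reads were worked out with numpy 2.4.6 by solving for the length of each transcript and the divisor of each library at which every value is a whole number of reads. All 25462 transcripts were solved and 100.0% of values came out whole within 0.01 reads. The divisor of a library was 0.617 to 1.207 of its total reads. Totals ran from 4391559 to 26115474 reads, and a value of a few reads has a wide counting error. The lowest chi-square per transcript was 1.8, between 2 unc22 libraries of day 9. Replicates 3 and 4 of zfp1 day 9 came next at 1.88, against 6.08 to 22.56 for the other pairs of that group. Both exceed the 1 of sampling noise, as did p53 day 13 replicates 3 and 1 at 2.11. A value above 1 does not show that libraries came from separate animals. Whether these are technical pairs was not tested, and no libraries were merged.

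Since RPKM is no count, limma 3.58.1 (R 4.3.3) was fitted to log2(RPKM + 1) with an intensity trend and a mean for each of 9 groups over all 35 libraries, which share 1 estimate of the spread (26 residual degrees of freedom). Fold changes on this scale understate changes at low levels. On it, the median SD over replicates was 0.168 to 0.313 in unc22 groups and 0.197 to 0.296 in p53 groups. Days 6 and 13 of zfp1 RNAi, at 0.435 and 0.34, spread more than any of these. The shared estimate may therefore understate the spread of those days, and p-values of contrasts with them may be too small. The test covered the 19206 transcripts that reached 1 RPKM in 3 or more libraries, and a call means a Benjamini-Hochberg adjusted p under 0.05. The fit was also run on simulated reads with known changes, where each transcript had the same relative spread in every group. Its outcome is not reported here and lends no weight to the calls.

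Transcripts were named by rule: among called transcripts whose compared zfp1 libraries did not overlap, the 10 largest rises and 10 largest falls of each interval and the 3 largest each way over the course; the largest differences from unc22 RNAi (3 each way) and from p53 RNAi (2 each way); and the 5 of highest mean RPKM over the zfp1 libraries. Fewer were named where fewer were called. The libraries, lists and rules were chosen with earlier results of these data known. Alternatives were other pseudocounts, filters and scalings, robust empirical Bayes, limma-voom on recovered reads, a replicate block, fits on the compared courses alone, and leaving out libraries. Thinning of reads to the lowest total was added after seeing the data.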

Additional observations from a re-analysis of the deposited data

Results flagged for a closer look

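In 20 of 178 sets of 4 values examined, each 1 transcript or library measure in 1 group, a single library lay far from its 3 fellows. Chance gives about 1 in 20. Of these, 9 were in zfp1 RNAi day 13 replicate 5 and 7 in zfp1 RNAi day 6 replicate 1, the low-complexity libraries. They included the library measures of replicate 5 of day 13, with 9923011 reads in total and 5021 transcripts at 0, against 22551650 to 24549054 reads and 365 to 761 transcripts at 0 in its fellows.

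In replicate 5 of day 13, SMED30030204 was at 14.7 RPKM (7.23 to 7.76 in the other 3), SMED30027621 at 5.22 RPKM (1.78 to 2.21), SMED30008091 at 5.89 RPKM (2.40 to 2.60), SMED30004214 at 621 RPKM (75.4 to 92.2) and SMED30032887 at 528900 RPKM (191700 to 240700), all above the rest. In the same library SMED30022187 was at 7.35 RPKM (16.6 to 18.2) and SMED30030379 at 5.80 RPKM (13.4 to 14.4), both below the rest.

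In replicate 1 of day 6, SMED30002134 was at 59.9 RPKM (8.79 to 12.7 in the other 3), SMED30014876 at 47.1 RPKM (6.50 to 9.81), SMED30011419 at 24.4 RPKM (4.72 to 5.03), SMED30025741 at 29.1 RPKM (1.76 to 4.82) and SMED30002931 at 19220 RPKM (1966 to 2675). SMED30007365 at 3.48 RPKM (6.02 to 6.37) and SMED30008024 at 4.87 RPKM (11.9 to 12.7) were low there. The first 4 of these levels lay within or above the unc22 range of day 6. What sets these libraries apart, and whether the knockdown in replicate 1 matched that of its fellows, was not tested.

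The remaining 4 cases were in other libraries. At day 9 of zfp1 RNAi SMED30016325 was at 5.53 RPKM in replicate 3 (4.14 to 4.25 in the other 3), and in replicate 1 SMED30015704 was at 2.84 RPKM (3.63 to 3.72) and SMED30030204 at 5.02 RPKM (3.13 to 3.28). At day 6 of p53 RNAi SMED30008091 was at 2.199 RPKM in replicate 2 (2.84 to 2.87).

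The course of zfp1 RNAi differed from that of unc22 RNAi by the test of the difference for 1 transcript in each interval, SMED30002500 at day 9 relative to day 6 (-1.55) and SMED30022975 at day 13 relative to day 9 (-1.21). It differed from that of p53 RNAi for 1 transcript at day 9 relative to day 6, SMED30017810 (-2.42), and for 546 at day 13 relative to day 9, led by SMED30013183 (-4.19), SMED30008091 (-2.93), SMED30024440 (3.32) and SMED30004214 (2.79, all log2). The call of SMED30017810 was kept in 15 of 48 alternatives. In that first interval 2437 of 19206 differences from p53 RNAi were at an unadjusted p under 0.05 in limma. Without the low-complexity zfp1 libraries 601 were called, so a count of 1 does not show that the courses were alike.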

How the results depend on the processing

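The calls rested on the shared estimate of the spread and on few libraries. Over 49 named results and their 2385 alternative values none reversed, 2031 stayed called and 354 did not. The results were named for being called and large, so a reversal was unlikely from the start. Most alternatives, 35 settings, left out 1 library each, and leaving out a library of a course not compared cannot move a change. On the compared courses alone 8 of the 49 stayed called. In the counts below the order is day 9 relative to 6, day 13 relative to 9 and day 13 relative to 6 of zfp1 RNAi (67, 24 and 251 called), then the differences from unc22 RNAi (1 and 1) and from p53 RNAi (1 and 546) in the first and second interval. Counts within 1.5 times of these are left out, and the cause of a moved count was not tested.

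With the compared courses alone 0, 0 and 26 were called, then 0 from unc22 in the first interval and 0 and 216 from p53. Without the low-complexity zfp1 libraries the first interval had 101, the differences from unc22 were 6 and 2 and the first from p53 was 601. Without these and unc22 day 13 replicate 5, in all 3 low-complexity libraries, the counts were 356, 43, 495, 11, 2, 1147 and 946. Limma-voom with quality weights gave 127, 1069, 682, 19, 148, 296 and 3575. Limma-voom without weights gave 67 in the second interval and 0 for the first interval against unc22 and against p53. Thinned reads, an alternative chosen after seeing the data, gave 23, 14, 118, 0 (first, unc22), 0 and 198 (p53). Quantile scaling gave 101 in the first interval, 2 in the second against unc22 and 41 in the first against p53. A pseudocount of 0.1 RPKM gave 0 in the first interval against unc22 and p53 and 317 in the second against p53, and one of 5 RPKM gave 49 in the second interval, 3 against unc22 there and 0 against p53 in the first. With a mean of at least 5 RPKM the counts were 15 (second interval), 115 (whole course), 6 and 190 (p53). With no filter, or robust empirical Bayes, the first interval against p53 had 0. At an unadjusted p under 0.05 the counts of 0 in the first interval against unc22 and p53 had 502 to 2876. Against unc22 they were 634 of 19206 with a pseudocount of 0.1 RPKM, 595 of 19206 with limma-voom and 701 of 20368 with thinned reads. These 3 shares are below the 0.05 expected by chance.

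Without zfp1 day 9 replicate 3 or 4, the most alike pair of their group, the first interval had 50 or 55 calls and the second 18 or 10. Leaving out 1 library at a time gave 10 to 382, 10 to 52 and 137 to 692 calls within zfp1 RNAi, 0 to 5 and 1 to 2 against unc22, and 0 to 190 and 275 to 1189 against p53. The median change of all tested transcripts moved past 0.1 on the log2 scale with a pseudocount of 0.1 RPKM (0.119 in the first interval) and with a mean of at least 5 RPKM (0.145 over the course).

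Replicate numbers recur between days. The deviations of zfp1 libraries with the same number had correlations of -0.391 to 0.455 over the 3 pairs of days. Those with different numbers had -0.545 to 0.519. With few libraries per day these ranges cannot settle whether the numbers pair the libraries, and no label says so. With a replicate block 245, 10 and 108 were called within zfp1 RNAi, 0 and 0 against unc22, and 105 and 205 against p53. Against unc22, 819 and 286 of 19206 were at an unadjusted p under 0.05, shares below the 0.05 expected by chance. The 81 higher and 169 lower at day 6 relative to unc22 came to 47 and 60 with a mean of at least 5 RPKM, 43 and 97 with thinned reads, and 229 and 335 without the 3 low-complexity libraries, and the 81 came to 255 with quality weights. Depth limits the weakest transcripts, which rest on a few reads.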
